A study of Arabidopsis thaliana with 6 samples.

Results

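AT5G55450 and its closest relatives among the Arabidopsis lipid transfer proteins were followed in whole seedlings, through the probe sets annotated to 1 of these loci alone. The set holds 5 loci, which are AT5G55450, its chromosome 5 neighbours AT5G55410 and AT5G55460, and the relatives AT4G33550 on chromosome 4 and AT5G56480 (AtEND2) on chromosome 5. Of the 5, 2 had such a probe set among the 22746 tested, AT5G55450 (248062_at) and AT4G33550 (253344_at), each with 1 probe set and no suffix for cross-hybridisation. AT5G55410, AT5G55460 and AT5G56480 had none in the platform annotation and were therefore not analysed here. The set was built around AT5G55450 because its transcript fell in the transgenic seedlings of these same arrays, so all differences between genotypes in the 2 measured members are given as a description, without a test.

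Plant lipid transfer proteins are small secreted proteins whose disulphide bridges, formed by conserved cysteines, hold a bundle of helices around a cavity that binds fatty acids and other lipids. The same fold occurs in the 2S albumins of seeds and in plant inhibitors of proteases and amylases, which is why the loci carry a joint name for inhibitors, lipid transfer and seed storage proteins in many annotations. Members of the family are known for roles at the cuticle and suberin, in pollen, and in defence, where DIR1 is needed for systemic acquired resistance, the long-distance immunity that follows a local infection. AT5G55450 belongs with DIR1 to the same branch of the family, and its overexpression has been linked to tolerance of a fungal trichothecene toxin.

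The arrays were Affymetrix Arabidopsis arrays of seedlings of the Columbia ecotype aged 10 days, grown on agar medium with sucrose under continuous light, 3 of wild type and 3 of a transgenic genotype that overexpressed the rice cDNA OsTOP6A1, for a subunit A protein of topoisomerase 6. The labels call the 3 arrays of each genotype biological replicates and give neither the promoter nor the number of transgenic lines, and an empty-vector control is not named in them. No probe set was identified for the rice cDNA, so its level was not analysed here. Values are intensities in arbitrary units, already scaled by the authors, and they compare 1 probe set between arrays, not different genes with each other.

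Array medians lay between 37.5 and 39.3, and correlations of log2(intensity + 16) between arrays were 0.991 to 0.995 within a genotype and 0.975 to 0.978 between genotypes. Wild type replicate 1 stood somewhat apart, as described below. The labelled tissue, whole light-grown seedlings, had both green shoot and root signal on every array. Of 18 listed shoot genes 4 were measured. Their summed intensity was 10005 to 11861 in wild type and 12313 to 13484 in transgenic seedlings, a gap made by the antenna gene LHCB4.2 alone. Without it the sums of RCA, PSAE-1 and LHCB4.1 overlapped, at 9475 to 11247 and 10474 to 11458. LHCB4.2 was left out after its values were seen, so nothing is read from that overlap. The 9 measured root genes had sums of 4426 to 4960 and 4388 to 4913. Most of these sums came from PYK10, with means of 3219 and 3366, so they say little about the other root genes. At a limma adjusted p of 0.05, a threshold past which 8.18% of all probe sets were higher and 8.31% lower, 1 of the 4 shoot genes was higher (LHCB4.2) and 0 were lower. Of the 9 root genes 3 were lower and 0 higher. Among these calls, that of AT5G10130 was not stable (limma adjusted p of up to 0.0883). It was lost on leaving out 4 of the arrays in turn, with a pseudocount of 1 and with a block for replicate number. The 4 measured of 18 listed genes of the seed storage program (1 cupin, 2 oleosins and 1 late embryogenesis protein gene) were under 16 on all arrays. In whole seedlings fewer cells of a type and less RNA per cell cannot be told apart. The part of tissue proportions in the results below was not tested.

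AT5G55450 had intensities of 718.6, 473.6 and 502.9 in wild type replicates 1 to 3 and of 129.7, 144.2 and 148.7 in transgenic replicates 1 to 3. The genotypes were far apart, since the lowest wild type array was 3.18 times the highest transgenic array. The means were 565 ± 134 and 141 ± 9.93 (SD, n = 3 each), so the transgenic mean was 75.1% below that of wild type, a ratio of 4.01. On the log2(intensity + 16) scale the difference, transgenic minus wild type, was -1.87 (SE 0.15, limma). By the size of this difference AT5G55450 was number 9 among the falls of all 22746 probe sets and number 5 among the falls of probe sets with a named locus.

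AT4G33550 had intensities of 377.1, 331.2 and 335.2 in wild type and of 222.6, 181.4 and 196.8 in transgenic seedlings. All transgenic arrays were again below all wild type arrays, by a smaller margin, with the lowest wild type array at 1.49 times the highest transgenic array. The means were 348 ± 25.4 and 200.3 ± 20.8 (SD, n = 3 each), a transgenic mean 42.4% below that of wild type and a ratio of 1.74. The log2 difference was -0.75 (SE 0.09, limma), which was number 241 among the falls of all probe sets and number 134 among those with a named locus. Both genes were thus lower in transgenic seedlings, and the drop of AT5G55450 was the larger of the 2 on the linear and on the log2 scale.

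For both members all transgenic arrays lay below all wild type arrays, as was the case for 19.9% of all probe sets. Since AT5G55450 was picked from this comparison, nothing is read from that count. The median log2 difference of all probe sets was -0.02.

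**Figure D1:**
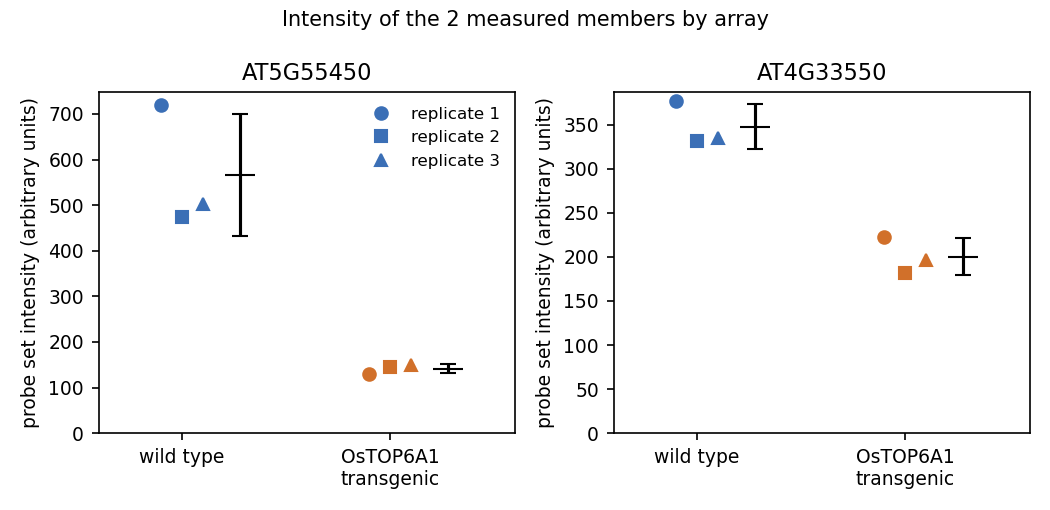
Probe set intensity (arbitrary units, linear axis from 0) of AT5G55450 and AT4G33550 on each of the 6 arrays, with symbols for the replicate number and, to the right of each genotype, the mean and SD of 3 arrays. The transgenic arrays lie below all wild type arrays for both genes, and wild type replicate 1 of AT5G55450 (718.6) lies above the other wild type arrays (473.6 and 502.9).

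The spread between arrays of 1 genotype was not itself used to choose the genes. A high wild type array does, however, enlarge the fall for which AT5G55450 was chosen. The wild type spread of AT5G55450 is therefore not independent of that choice. In wild type AT5G55450 varied more than most transcripts, with a coefficient of variation of 23.7%. The median over the 1120 probe sets whose wild type mean lay within 1.5-fold of its own was 6.00%, and 98.2% of them varied less. In transgenic seedlings its coefficient of variation was 7.05%, beside a median of 6.17% for 3477 probe sets of like level. AT4G33550 had 7.31% in wild type and 10.4% in transgenic seedlings, beside medians of 6.33% and 5.71%. The wild type spread of AT5G55450 came from replicate 1, which was 1.47 times the mean of the other wild type arrays, while transgenic replicate 1 was 0.89 times the mean of the other transgenic arrays. For AT4G33550 these ratios were 1.13 and 1.18. The deviations of the 2 genes from their genotype means over the 6 arrays had a Pearson r of 0.37 and a Spearman rho of 0.37, a description in which the arrays' shared scaling takes part.

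Among all 14744 probe sets with a mean of at least 16, 4.07% were at least 1.4 times as bright on wild type replicate 1 as on the other wild type arrays, against 1.27% and 1.09% for wild type replicates 2 and 3, and 0.96% to 2.90% for the transgenic arrays. The level of 1.4 was set after the values were seen. Replicate 1 of wild type was also the brightest for genes of salicylic acid signalling and systemic resistance, the setting in which DIR1 acts. CHI (AT2G43570), a chitinase gene, had 121.1, 33.7 and 36.8 in wild type and 45.8, 41.6 and 43.7 in transgenic seedlings. AT5G03350, a salicylic acid-induced lectin-like gene, had 121.9, 40.2 and 36.8 in wild type and 51.1, 14.3 and 18.7 in transgenic seedlings, so its replicate 1 was high in both genotypes. AT5G52810, an enzyme gene of pipecolic acid synthesis, had 132.0, 67.0 and 74.1 in wild type and 70.3, 60.8 and 61.2 in transgenic seedlings. Of the 28 genes in this list only 5 were measured, and DIR1 was not among them. Of these 5, 4 had wild type replicate 1 at 1.4 times the other 2 or more. Among the 4, SAG101 only just reached that level, with a ratio of 1.401, and its transgenic replicate 1 had a ratio of 0.65. The level was also reached by 5 of the 20 family genes with a mean of at least 16. It was reached by 0 of 10 chromosome 5 neighbours, 0 of 9 root genes and 0 of 4 shoot genes. The family genes were AT4G12490 and AT4G12500, from the same gene cluster as the systemic resistance gene AZI1, with ratios of 2.21 and 2.38, AT4G22470 with 1.48, AT4G22610 with 1.65 and AT2G37870 with 1.43. For AT4G22610 and AT2G37870 transgenic replicate 1 was high too, with ratios of 1.44 and 1.82. For AT4G12490, AT4G12500 and AT4G22470 it was not (0.96, 0.70 and 0.95). Without wild type replicate 1 the log2 difference was -1.69 (SE 0.08) for AT5G55450 and -0.70 (SE 0.10) for AT4G33550.

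**Figure D2:**
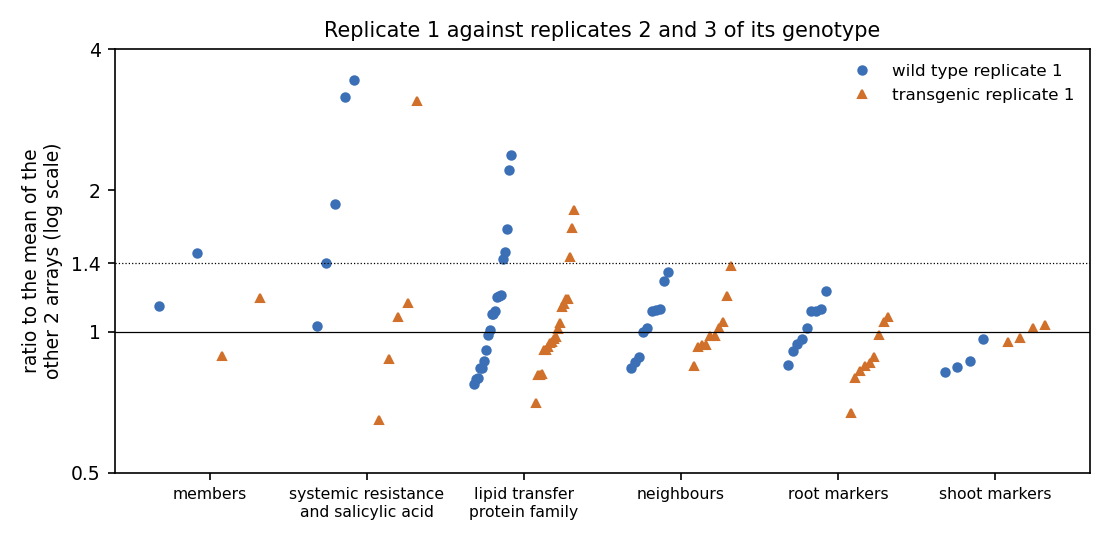
Intensity of replicate 1 divided by the mean of replicates 2 and 3 of its genotype (log axis), for each measured gene with a mean of at least 16, by gene list, with circles for wild type and triangles for transgenic seedlings. The dotted line marks 1.4. In wild type 4 of 5 systemic resistance genes, 5 of 20 family genes and AT5G55450 reach it, and none of the neighbours, root genes or shoot genes do (0 each).

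Of the systemic resistance list, 1 of 5 measured members was lower in transgenic seedlings and 0 were higher, beside 16.5% of all probe sets called. It was UGT76B1 (AT3G11340), which glucosylates salicylic acid and related immune signals, with 69.5, 67.8 and 67.3 in wild type and 44.4, 53.0 and 48.6 in transgenic seedlings. Its log2 difference was -0.38 (SE 0.07, limma adjusted p = 0.011). The others, AT5G03350, AT5G52810, SAG101 (AT5G14930, a partner of the immune regulator EDS1) and CHI, had log2 differences of -0.85, -0.37, -0.27 and -0.25 that did not pass (limma adjusted p of 0.225, 0.268, 0.217 and 0.693). The median of the 5 was -0.37. The summed intensity of these 5 was 227.5 to 475.4 in wild type and 188.5 to 224.7 in transgenic seedlings. The part of wild type replicate 1 in these differences is seen in the values without it, which were -0.40 for AT5G03350, -0.11 for AT5G52810, -0.17 for SAG101 and 0.22 for CHI. For UGT76B1 the value without it was -0.37, beside -0.38 with all arrays.

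The wider family did not move one way. Of 98 further loci listed as lipid transfer proteins or 2S albumins, 43 had a probe set of their own in the platform annotation. Of these, 5 were higher, 4 were lower and 34 did not pass a limma adjusted p of 0.05. That is 20.9% called, beside 16.5% of all probe sets, of which 8.18% were higher and 8.31% lower. The median log2 difference of the 43 was 0.01, against -0.02 over all probe sets, and the values ran from -1.26 to 0.77. AT5G55450, at -1.87, lay below that range, and AT4G33550, at -0.75, lay within it. Of the 43, 21 were under 16 on every array, where differences are small by construction of the scale. None of the 2S albumin genes listed had a probe set of its own in the annotation (0 of 5).

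Outside the set, the only measured relative of the DIR1 type was AT5G48490, which encodes a DIR1-like protein that also acts in systemic resistance. Its intensities were 347.2, 330.8 and 306.3 in wild type and 350.7, 313.8 and 299.8 in transgenic seedlings. The genotypes overlapped fully, and its log2 difference of -0.03 (SE 0.08, limma adjusted p = 0.863) was smaller than its standard error. AT5G55450 and this relative of its branch thus had differences of -1.87 and -0.03, beside -0.75 for AT4G33550, the other measured member of the set.

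The 4 falls in the family were 1 of 3 measured in type I, 1 of 7 in type II, 1 of 13 among the putative membrane-anchored members and 1 of 9 among other small secreted members, with 0 of 10 in the EARLI1 and hybrid proline-rich branch and 0 of 1 in the DIR1 type, beside 8.31% of all probe sets. Whether the branches differ was not tested. AT2G37870 had 164.0, 114.3 and 115.5 in wild type and 66.1, 41.0 and 31.8 in transgenic seedlings. Its log2 difference was -1.26 (SE 0.21, limma adjusted p = 0.00702), the largest fall of the 43. AT1G48750, of the shorter type II proteins, had means of 668 ± 22.4 and 397 ± 2.85 (SD, n = 3 each) and a log2 difference of -0.73 (SE 0.06, limma adjusted p = 0.000327). AT3G58550, a putative membrane-anchored member, fell from a mean of 130.1 ± 18.0 to 82.9 ± 4.27, and AT2G18370, of type I, from 115 ± 15.9 to 81.0 ± 5.87 (SD, n = 3 each). The call of AT2G18370 ended without any of 5 arrays taken singly and with a pseudocount of 1 (limma adjusted p of up to 0.0925).

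The 5 rises were 1 of 10 measured members of the EARLI1 and hybrid proline-rich branch, which carry a proline-rich stretch before the lipid transfer domain, and 4 of the 13 putative membrane-anchored members, beside 8.18% of all probe sets. Of these 4, 1 was dim on all arrays and 2 lost their call in most fits with 1 array left out, as given below. AT1G62510, of the first of these branches, had 311.2, 376.8 and 368.9 in wild type and 679.3, 613.6 and 545.5 in transgenic seedlings. Its log2 difference was 0.77 (SE 0.11, limma adjusted p = 0.00323). AT3G22620 rose from a mean of 88.4 ± 10.3 to 152 ± 47.7, with transgenic replicate 1 at 207.3 beside 125.5 and 123.8. AT2G48130 rose from 44.4 ± 2.51 to 63.3 ± 4.46 and AT2G44300 from 35.3 ± 3.72 to 46.7 ± 3.30 (SD, n = 3 each). AT4G22640 was called higher too, but was under 16 on every array, with means of 4.3 ± 1.49 and 11.2 ± 0.67. The calls of AT3G22620 and AT2G44300 each ended without any of 5 arrays taken singly (limma adjusted p of up to 0.14 and 0.129). Without 4 of the arrays taken singly (replicates 2 and 3 of both genotypes) the rises of the family numbered 3, and the falls 3. Without wild type replicate 1 they numbered 5 and 4, with AT4G12490 (limma adjusted p = 0.00376) in place of AT3G22620 (0.0668).

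**Figure D3:**
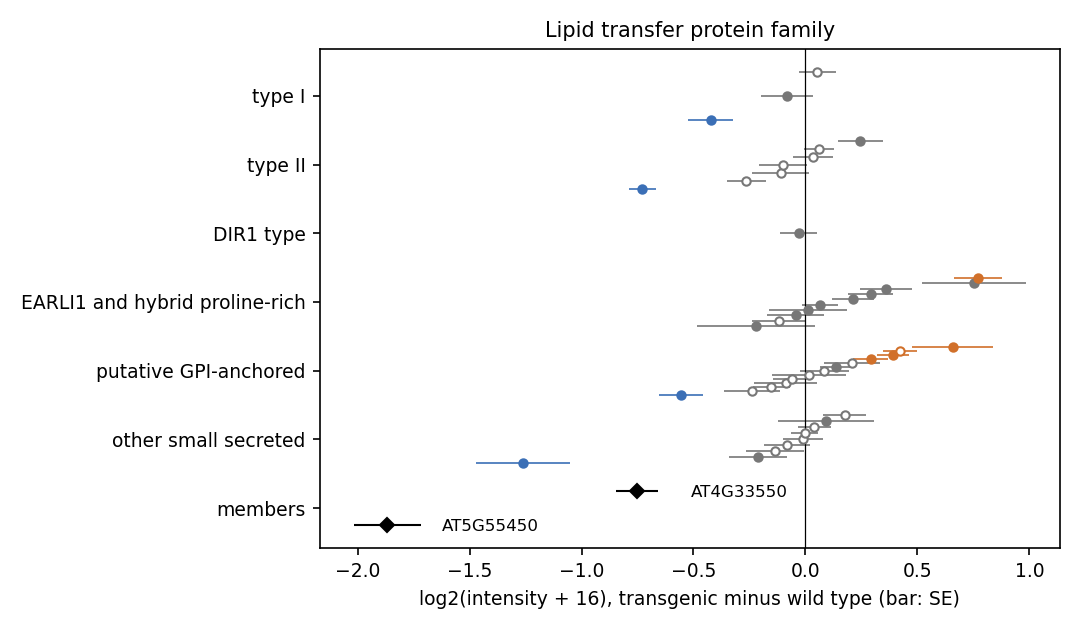
Difference in log2(intensity + 16), transgenic minus wild type, with its SE, for 43 family genes by branch and for the 2 members (black diamonds). Orange marks higher and blue lower calls at a limma adjusted p of 0.05, grey the genes that did not pass, and open circles genes under 16 on every array. AT5G55450 (-1.87) lies to the left of all other family genes, whose falls and rises number 4 and 5.

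On chromosome 5, in the locus order of the RefSeq assembly TAIR10.1, AT5G55450 lies between AT5G55440 and a long non-coding RNA locus, AT5G08275, after which AT5G55460 follows. AT5G55410 lies 4 loci before it. None of these had a probe set of its own in the platform annotation. Within 20 loci on each side 16 neighbours outside the set were measured, 10 before and 6 after AT5G55450, and 4 of them were lower and 0 higher at a limma adjusted p of 0.05, which is 25.0% lower beside 8.31% of all probe sets. At an unadjusted p of 0.05 the neighbours that passed numbered 7 of 16, beside 30.5% of all probe sets. The median log2 difference of the 16 was -0.08.

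The nearest measured neighbours had log2 differences near 0. AT5G55420, annotated as a transcribed pseudogene 3 loci before, was dim on all arrays, with means of 3.4 ± 2.99 and 2.03 ± 1.07 (SD, n = 3 each). AT5G55400, a fimbrin-like gene 5 loci before, had 76.4, 65.8 and 72.2 in wild type and 91.4, 68.2 and 64.4 in transgenic seedlings, which overlap, with a log2 difference of 0.04 (SE 0.12, limma adjusted p = 0.861). Further out on this side lay a run of wax synthase-like acyltransferase genes, AT5G55320 to AT5G55380, of which 5 of the 7 measured were under 16 on every array. AT5G55380 had a log2 difference of 0.34 that did not pass (limma adjusted p = 0.0691), but passed as higher without wild type replicate 1 (limma adjusted p = 0.0172). AT5G55340 and AT5G55290 had log2 differences of -0.26 and -0.18 that did not pass either (limma adjusted p of 0.143 and 0.112). All 6 neighbours under 16 on every array were on this side, where a call is therefore harder to reach.

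All 4 calls lay on the other side, 14 to 20 loci after AT5G55450, and whether the sides differ was not tested. AT5G55520, 13 loci after it and the nearest measured there, had a log2 difference of 0.11 (SE 0.10, limma adjusted p = 0.50). AT5G55570 had 92.0, 117.3 and 96.6 in wild type and 40.6, 50.8 and 32.0 in transgenic seedlings, a log2 difference of -1.05 (SE 0.13, limma adjusted p = 0.00227). AT5G55560, a WNK-type kinase gene, fell by 0.47 and AT5G55580, of the mTERF family of organelle gene regulators, by 0.42 on the log2 scale. AT5G55530 fell by 0.29 (SE 0.07, limma adjusted p = 0.031). The calls of AT5G55580 and AT5G55530 were lost on leaving out 4 and 5 of the arrays in turn (limma adjusted p of up to 0.0774 and 0.0958). Both were also lost with a pseudocount of 1, and that of AT5G55580 with a block for replicate number (limma adjusted p = 0.0508). The log2 differences of AT5G55580 and AT5G55530 stayed below 0 without any single array, at -0.50 to -0.37 and -0.35 to -0.26. This leaves 2 lower neighbours, AT5G55570 and AT5G55560, without replicate 2 or 3 of either genotype.

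**Figure D4:**
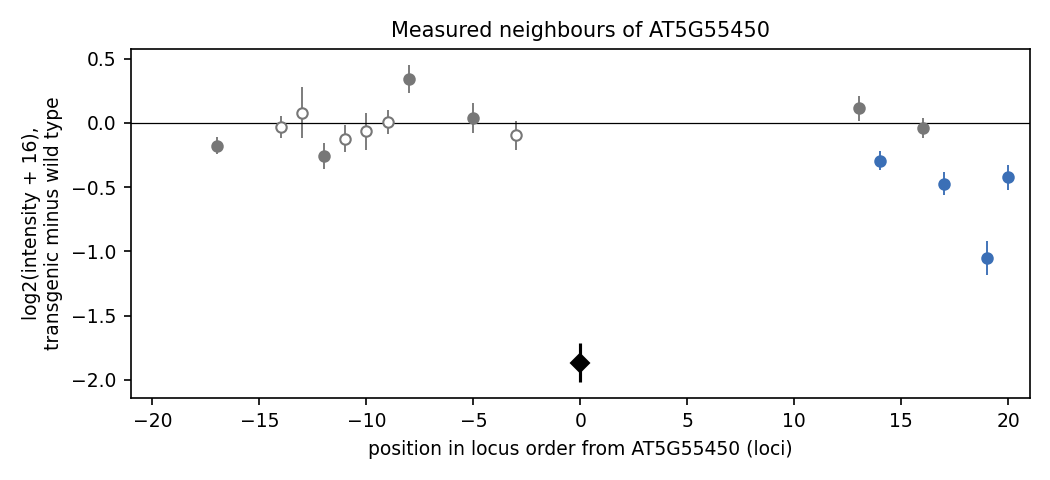
Difference in log2(intensity + 16), transgenic minus wild type, with its SE, of 16 measured neighbours against their position in locus order from AT5G55450 (black diamond at 0). Blue marks lower calls at a limma adjusted p of 0.05, grey the loci that did not pass, and open circles loci under 16 on every array. The nearest measured loci on both sides lie near 0, and the 4 falls are 14 to 20 loci after AT5G55450.

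Of the genes of cuticle and suberin synthesis, 2 of 34 listed had a probe set of their own in the platform annotation. They were the regulator SHN3 and the wax ester synthase WSD1, both under 16 on all arrays. Neither passed in limma, and 0 of the 2 had an unadjusted p under 0.05. Their log2 differences were -0.17 and 0.09. Of the seed storage program 0 of the 4 measured passed in limma, beside 16.5% of all probe sets, and 1 of the 4 had an unadjusted p under 0.05, beside 30.5% of all probe sets.

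Across the 6 arrays the profiles most like that of AT5G55450 were sought among 219 loci with a mean of at least 16 in a genotype and a log2 difference of at least 1 in size. The highest Pearson correlations were those of AT2G41380 (0.998), AT4G19430 (0.997), AT1G48180 (0.995), the cytochrome P450 gene CYP71B23 (AT3G26210, 0.994) and AT3G32080 (0.993). The split between the genotypes, for which AT5G55450 was chosen, enters each correlation, so these values are a description. AT4G19430, AT1G48180 and AT3G32080 reached a mean of 16 in wild type only, with 31.2, 22.2 and 18.8 there and 1.83, 1.87 and 1.13 in transgenic seedlings. AT2G41380 had 232.8, 151.9 and 155.8 in wild type and 49.5, 56.3 and 53.1 in transgenic seedlings. Replicate 1 was the highest wild type array for all 5 loci. Replicate 2 was the lowest, as for AT5G55450, for AT2G41380, AT4G19430 and CYP71B23, and replicate 3 for AT1G48180 and AT3G32080. The loci were picked by their correlation with AT5G55450 over these same arrays. That choice favours a high wild type replicate 1, so nothing is read from the shared order of replicates.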

How the data were processed

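The authors deposited 1 linear intensity per probe set and array. Per the labels' protocols, TRIzol RNA was turned into biotinylated cRNA by the Affymetrix procedure. How the authors computed and scaled the intensities is not given in the sources used here. Every array had a mean of 100.0 after trimming 2% at each end, so no further normalization was applied. The number of arrays limits the precision. Of 22810 probe sets, 64 controls were left out. Loci came from the platform annotation, matched by gene ID to RefSeq (TAIR10.1) for 13436 probe sets (13286 loci), while 503 had several genes and 8730 were not listed. A locus not measured here may therefore still have a probe set on the array. With several probe sets per locus the one with the highest mean was used.

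Transgenic minus wild type was fitted on log2(intensity + 16) with limma 3.58.1 in R 4.3.3 (lmFit, eBayes), with Benjamini-Hochberg adjustment over 22746 probe sets and a threshold of 0.05. The fit was tested on simulated data. Members and gene lists were chosen with earlier results of these data known, and branches of the family were assigned from general knowledge. Named genes were the members, up to 8 calls per list by smallest p, the 2 nearest measured neighbours on each side and every neighbour called, and the 5 loci most correlated with AT5G55450. AT3G22620, the fifth rise of the family, and the genes given for their replicate 1 values, their values without wild type replicate 1 or as comparison were named after their values were seen. Alternatives were quantile normalization, equal array medians, pseudocounts of 1 and 64, omission of dim or possibly cross-hybridising probe sets, an intensity trend, a replicate block and omission of each array.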

Additional observations from a re-analysis of the deposited data

How the results depend on the processing

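The log2 difference of AT4G33550 moved by less than the spread between replicates under every alternative tried, and so did that of AT5G55450 except with a pseudocount of 64 (-1.60 in place of -1.87). Without single arrays they ran from -1.98 to -1.69 for AT5G55450 and from -0.83 to -0.69 for AT4G33550. The correlation of their deviations stayed positive with both other pseudocounts. With a pseudocount of 1 there were 1184 higher and 959 lower calls among all probe sets (main 1861 and 1890), 3 rises in the family (main 5) and 2 falls among the neighbours (main 4). The neighbours had 1 rise (main 0), AT5G55380, under quantile normalization, with equal array medians and without dim probe sets. Without single arrays there were 1213 to 1741 higher and 968 to 1692 lower calls among all probe sets, 3 to 6 rises and 3 to 4 falls in the family, and 2 to 4 falls and 0 to 1 rises among the neighbours. Each such fit has fewer arrays, and the cause of these shifts was not tested.

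Arrays of the same replicate number had correlations of deviations of 0.08 to 0.26, and 5 of 6 arrays correlated best with their own number, a hint from the data and not from the design. With the replicate block the lower calls in the systemic resistance list were 2 (main 1), AT5G03350 being added (limma adjusted p = 0.00555), the neighbours had 3 falls, and the family had 6 rises and 4 falls, and the log2 differences of the members were the same by construction.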
